A study of Mus musculus and Sus scrofa with 12 samples.

Results

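The collagen genes encode the alpha chains that assemble, 3 at a time, into the triple helices of the extracellular matrix. They were taken here as the protein-coding genes whose symbol is COL, a number, A and a number, in the RefSeq annotations of mouse (GRCm38) and pig (Sscrofa11.1), with COL2A1 and COL9A1 left out. This gave 43 genes, of which 42 were found among 21774 mouse coding genes, 41 among 20661 pig coding genes and 40 in both. COL21A1 was absent from the mouse annotation by symbol, and COL6A1 and COL6A4 from the pig annotation.

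The chains differ in what they build. Fibrillar chains (types I, III, V, XI, XXIV and XXVII) form the banded fibrils of dermis, tendon and bone, and the FACIT chains decorate the surface of such fibrils. Type IV chains form the network of basement membranes, type VI chains the beaded filaments around cells, and type VIII and X chains hexagonal short-chain networks. The multiplexins lie in basement membrane zones, and the transmembrane collagens sit in the plasma membrane. Before the cartilage model of the limb is laid down, the bud is a core of mesenchyme under an ectodermal sheet, with blood vessels and incoming muscle precursors. H3K4me3 is a mark of gene starts, H3K27ac of active promoters and enhancers, and H3K4me1 of enhancers and of the flanks of promoters.

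Forelimbs of wild-type mouse embryos at E11.5 (embryonic day) and of wild-type pig embryos at day 23 (D23) were profiled for the 3 marks by ChIPmentation, which is chromatin immunoprecipitation with adapters inserted by a transposase. The labels list 2 samples for each species and mark, 12 in all, taken from littermates, and they do not name a strain. For pig H3K4me1 the labels name 2 samples while the design text speaks of 1 biological replicate. The deposited values are 6 lists of peak positions, 1 per species and mark, in which the replicates are already combined, so no spread between animals could be set beside any difference and no test was run.

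The lists differ in make-up, and every count below carries that difference. H3K4me3 had 18353 peaks in mouse and 18713 in pig, H3K27ac 20875 and 27566, and H3K4me1 69962 and 103373. Median peak widths were 3308, 2928 and 3392 bp in mouse and 1679, 1164 and 3033 bp in pig. Pig H3K4me3 and H3K27ac were sequenced at 50 bp, and the other libraries at 100 bp with cropping to 50 bp. The tissue was checked on marker genes. H3K27ac lay at the transcription start site (TSS) of 9 of 9 limb mesenchyme markers in mouse and 8 of 9 in pig, the exception being PRRX1. It lay at 2 of 10 endothelial markers in mouse and 1 of 10 in pig, at 2 of 10 and 0 of 8 blood markers, and at 3 of 10 and 4 of 9 ectodermal markers. Muscle precursor markers held it at 2 of 7 in each species, neural crest and glia markers at 1 of 7 and 0 of 7, chondrocyte markers at 5 of 8 and 4 of 8, and osteoblast markers at 1 of 6 in each. Of all coding genes, 41.6% in mouse and 46.7% in pig held H3K27ac at a TSS. The pig ectodermal and chondrocyte lists were near that share. In whole forelimbs, a mark held by fewer cells and a weaker mark in all cells cannot be told apart.

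The sequences below carry the results that follow, and each mouse promoter comes from RefSeq (GRCm38.p6). The first is the 200 bases before the TSS of Col1a2, which encodes the second chain of type I collagen and held all 3 marks in both species (chr6:4505418-4505617, plus strand, GRCm38). The other is the same stretch of Col10a1, the collagen of hypertrophic cartilage, which held no mark in either species (chr10:34389781-34389980, plus strand, GRCm38). Capitals mark the CCAAT box of Col1a2 and the TATA-like motifs TATAAA and TATATA of Col10a1.
Col1a2: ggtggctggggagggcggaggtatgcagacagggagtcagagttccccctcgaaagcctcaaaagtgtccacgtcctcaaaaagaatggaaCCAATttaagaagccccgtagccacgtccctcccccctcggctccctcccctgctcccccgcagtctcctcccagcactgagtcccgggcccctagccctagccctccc
Col10a1: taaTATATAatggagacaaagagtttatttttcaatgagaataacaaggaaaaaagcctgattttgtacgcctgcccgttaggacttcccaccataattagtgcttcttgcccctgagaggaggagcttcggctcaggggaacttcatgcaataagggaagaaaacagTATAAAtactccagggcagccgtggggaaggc

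The start regions of Col3a1 (type III, the fibrillar partner of type I in soft tissue), Col4a6 (a basement membrane chain) and Col24a1 (a minor fibrillar chain) are shown because all 3 genes held H3K4me3 at the TSS in mouse and not in pig. They are the stretches before the mouse TSS that aligned between the species, with capitals where both have the same base. The Col3a1 pair comes from chr1:45311387-45311537, plus strand, GRCm38, and chr15:93556671-93556820, plus strand, Sscrofa11.1. The Col24a1 pair comes from chr3:145292430-145292471, plus strand, and chr4:129904939-129904980, plus strand. For COL4A6 the pig stretch alone is given, from chrX:88957428-88957617, minus strand.
Col3a1, mouse: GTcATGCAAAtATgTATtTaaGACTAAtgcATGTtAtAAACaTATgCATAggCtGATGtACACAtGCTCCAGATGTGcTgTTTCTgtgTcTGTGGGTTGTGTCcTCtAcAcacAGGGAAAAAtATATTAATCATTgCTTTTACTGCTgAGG
COL3A1, pig: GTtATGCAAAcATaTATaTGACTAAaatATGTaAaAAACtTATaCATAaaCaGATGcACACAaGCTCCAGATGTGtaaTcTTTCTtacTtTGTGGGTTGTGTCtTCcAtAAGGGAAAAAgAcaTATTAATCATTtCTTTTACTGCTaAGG
Col24a1, mouse: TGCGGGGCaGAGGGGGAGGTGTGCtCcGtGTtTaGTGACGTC
COL24A1, pig: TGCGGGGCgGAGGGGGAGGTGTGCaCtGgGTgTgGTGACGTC
COL4A6, pig: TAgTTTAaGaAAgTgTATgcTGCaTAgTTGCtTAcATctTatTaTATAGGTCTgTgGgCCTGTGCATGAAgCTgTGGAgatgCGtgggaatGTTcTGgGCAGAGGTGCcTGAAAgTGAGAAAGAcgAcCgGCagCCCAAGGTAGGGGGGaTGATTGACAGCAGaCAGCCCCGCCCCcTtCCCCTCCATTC

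A mark was taken as present at a gene if 1 bp or more of a peak fell within 1 kb of one of its TSSs, on either side. Collagen genes held H3K4me3 in 34 of 42 cases in mouse (81.0%, where 65.0% of coding genes did) and in 29 of 41 in pig (70.7%, background 64.9%). H3K27ac was called at 14 of 42 in mouse (33.3%, background 41.6%) and 14 of 41 in pig (34.1%, background 46.7%). H3K4me1 was called at 25 of 42 in mouse (59.5%, background 54.7%) and 34 of 41 in pig (82.9%, background 61.3%). The H3K27ac shares thus lay below those of coding genes at large in both species. The H3K4me3 share lay above in mouse, and in pig it was nearer to that of coding genes. The size of these gaps depends on peak width, as given in the closing section. In the wider 50% of peaks, mouse H3K4me3 was called at 18 of 42 members, near the share of coding genes (40.4%). Of the members with H3K4me3, 41.2% in mouse and 48.3% in pig also held H3K27ac, while 62.3% and 69.4% of all coding genes with H3K4me3 did.

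**Figure D1:**
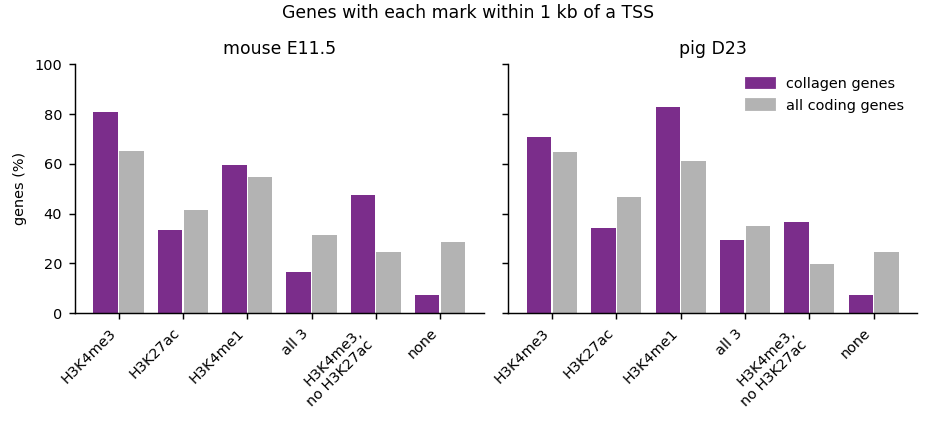
Share of genes (%) with each mark, or combination of marks, within 1 kb of a TSS, for the collagen genes (purple, 42 in mouse and 41 in pig) and for all coding genes (grey, 21774 and 20661). The purple bar for H3K4me3 without H3K27ac stands at 47.6% in mouse and 36.6% in pig, and the grey bars beside it at 24.5% and 19.9%.

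By combination, H3K4me3 without H3K27ac was found at 20 mouse members (47.6%, background 24.5%) and 15 pig members (36.6%, background 19.9%). All 3 marks together were found at 7 of 42 in mouse (16.7%, background 31.6%) and 12 of 41 in pig (29.3%, background 35.0%). No mark at all was found at 3 members in each species (7.14% and 7.32%, background 28.7% and 24.6%). H3K4me1 was the sole mark at 5 members in mouse (11.9%, all coding genes 5.14%) and 9 in pig (22.0%, all coding genes 8.89%). H3K27ac was not called at any member's TSS without H3K4me3 in either species, and this was rare among all coding genes. There, H3K27ac alone was found at 0.597% in mouse and 0.436% in pig, and H3K27ac with H3K4me1 only at 0.551% and 1.18%. The members with all 3 marks in both species were COL1A1, COL1A2, COL12A1, COL25A1 and COL26A1. COL10A1 alone had none in both. Its nearest H3K4me3 peak lay 26.3 kb from the TSS in mouse and 26.9 kb in pig, and pig COL10A1 had 1 distal H3K27ac peak, 5.07 kb from the TSS.

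**Figure D2:**
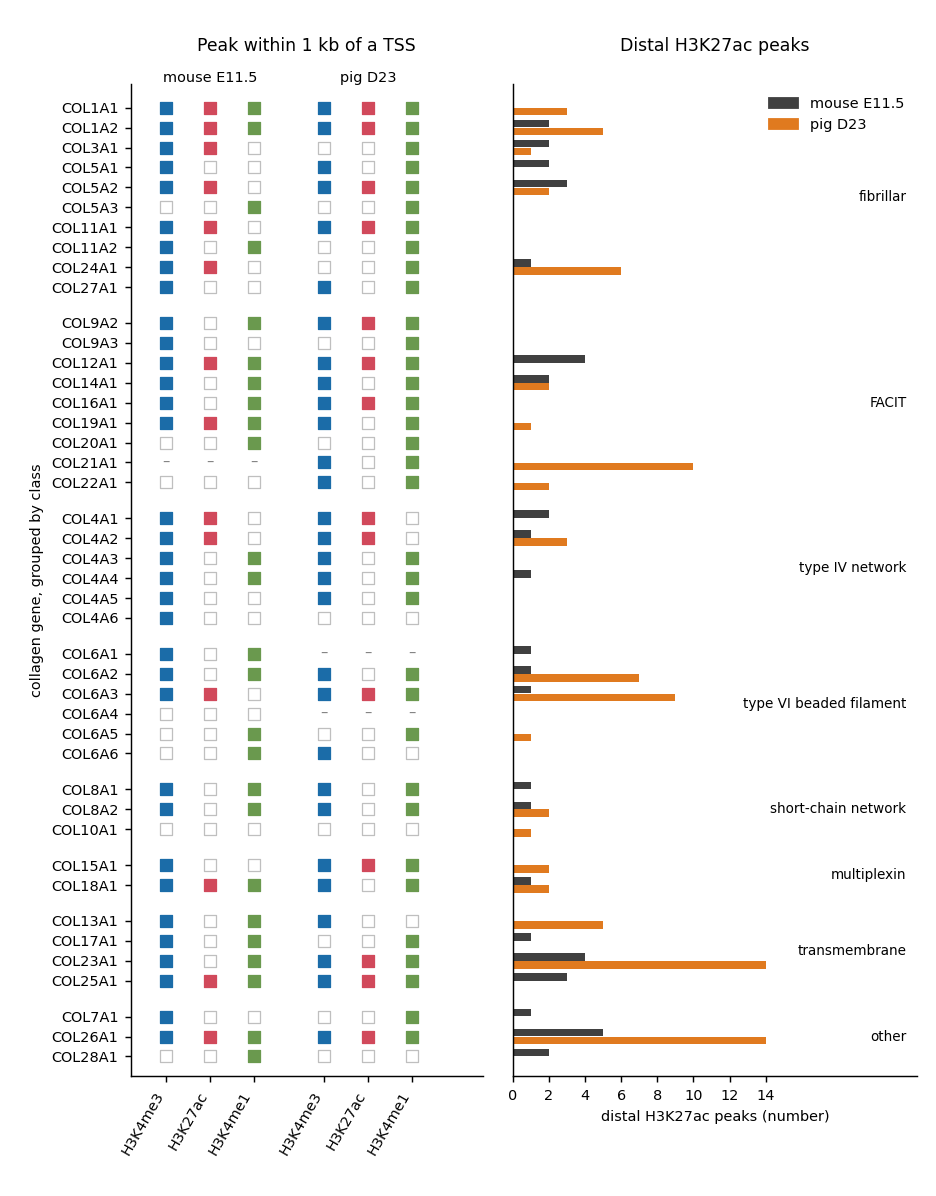
Left, each collagen gene by class, with a filled square where a peak of H3K4me3 (blue), H3K27ac (red) or H3K4me1 (green) lay within 1 kb of a TSS, an open square where none did and a dash where the gene is not in that annotation by symbol; right, the number of distal H3K27ac peaks per gene in mouse (dark) and pig (orange). The rows of COL1A1, COL1A2, COL12A1, COL25A1 and COL26A1 are filled throughout, and the longest bars are 14 peaks at COL23A1 and COL26A1 in pig.

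Among the fibrillar chains, type I was the type with all 3 marks at each of its genes in both species. COL1A1 and COL1A2, which together make the type I heterotrimer of bone, skin and tendon, held all 3 marks in mouse and in pig. At Col1a1 the mouse H3K27ac peak was 10453 bp wide, the widest at any member's TSS, where the median of marked members was 3136 bp and that of marked coding genes 3178 bp. The pig COL1A1 peak of 1779 bp was below the pig members' median of 1864 bp. COL5A2 and COL11A1, chains of the minor fibrils that set fibril diameter, held H3K4me3 and H3K27ac in both species, with H3K4me1 in pig in addition. COL5A1 and COL27A1 held H3K4me3 without H3K27ac in both, with H3K4me1 in pig in addition. Their nearest H3K27ac peaks lay 6.81 and 59.5 kb away in mouse and 94.8 and 36.1 kb away in pig. COL5A3 held H3K4me1 alone in both species, with the nearest H3K4me3 peak at 52.0 kb in mouse and 17.2 kb in pig.

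The other fibrillar chains differed between the species in H3K4me3 at their annotated TSSs. Col3a1 held H3K4me3 (3531 bp) and H3K27ac (3540 bp) in mouse, without H3K4me1, whose nearest peak was 2.99 kb away. Pig COL3A1 held H3K4me1 alone, 0.971 kb from the TSS, with the nearest H3K27ac peak at 71.1 kb and the nearest H3K4me3 peak at 201 kb, at the TSS of COL5A2. Col24a1 held H3K4me3 and H3K27ac in mouse, and pig COL24A1 held H3K4me1. Col11a2, the second chain of type XI, held H3K4me3 and H3K4me1 in mouse and H3K4me1 alone in pig, where the nearest H3K4me3 peak was 6.76 kb upstream at RXRB and SLC39A7. Of the 10 fibrillar genes, 6 held H3K27ac in mouse and 4 in pig, and 9 and 6 held H3K4me3. The shares of all coding genes in mouse and pig were 41.6% and 46.7% for H3K27ac, and 65.0% and 64.9% for H3K4me3. For both marks the mouse fibrillar genes lay above these shares and the pig fibrillar genes slightly below them.

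Among the FACIT chains, which bind to fibril surfaces, 6 of the 8 mouse genes (75.0%, all coding genes 65.0%) held H3K4me3. In pig 7 of the 9 did (77.8%, all coding genes 64.9%). H3K27ac was at 2 in mouse (25.0%, all coding genes 41.6%) and 3 in pig (33.3%, all coding genes 46.7%). COL12A1, of dense connective tissue, held all 3 marks in both species, with the widest H3K4me3 peak of any member in each (4172 and 3576 bp). Col19a1 held H3K27ac in mouse, and the nearest pig peak was 65.9 kb away. COL9A2, a cartilage chain, and COL16A1 held H3K27ac in pig, with the nearest mouse peaks 57.0 and 58.7 kb away. COL9A3 held H3K4me3 in mouse and not in pig, and COL22A1, of tissue junctions, in pig and not in mouse, where the nearest peak lay 656 kb from the TSS. COL21A1, found in the pig annotation, held H3K4me3 and H3K4me1.

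The type IV genes lie head to head in pairs, and in 2 of the pairs both genes had the same marks in both species. Col4a1 and Col4a2, the chains of nearly all basement membranes, have TSSs 21 bp apart in mouse and 134 bp apart in pig. Both genes held H3K4me3 and H3K27ac without H3K4me1 in both species, and they share the same peaks (4138 and 2752 bp in mouse, 2573 and 1949 bp in pig). Col4a3 and Col4a4, chains of the kidney glomerulus, have TSSs 72 bp apart in mouse and 662 bp apart in pig. They held H3K4me3 and H3K4me1 without H3K27ac in both, and the nearest H3K27ac peak to a Col4a3 TSS was 110 kb away in mouse and 156 kb in pig. Members of a pair are therefore not independent counts. Col4a5 and Col4a6 lie 1.27 kb apart in mouse and held H3K4me3 alone, under 1 peak of 3843 bp.

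In the type VI class, Col6a3 held H3K4me3 and H3K27ac in both species, and COL6A2 H3K4me3 and H3K4me1 in both. Mouse Col6a1 matched Col6a2 in state. A pig gene without a collagen symbol, LOC100623720, is annotated with the product collagen alpha-1(VI) chain; it is not counted among the members and held H3K4me3 and H3K4me1. The later-named chains Col6a5 and Col6a6 held H3K4me1 alone in mouse, and Col6a4 no mark. Pig COL6A6 held H3K4me3 alone, under a peak of 1015 bp that was the narrowest of any member, and the nearest mouse H3K4me3 peak to Col6a6 was 163 kb away, at Pik3r4. Both type VIII genes held H3K4me3 and H3K4me1 without H3K27ac in both species. Of the multiplexins, Col18a1 held H3K27ac in mouse alone and COL15A1 in pig alone. Of the transmembrane collagens, COL25A1 held all 3 marks in both and COL23A1 H3K27ac in pig. Col17a1, of the hemidesmosome in surface epithelium, held H3K4me3 in mouse and not in pig. Col7a1, which forms the anchoring fibrils under that epithelium, did likewise.

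For the 40 genes in both annotations, the full state of 3 marks was the same in 17 (42.5%, where 48.8% of 14946 orthologs did). H3K4me3 was called in both species at 26 (65.0%, all orthologs 74.7%), in mouse alone at 7 (17.5%, background 7.17%) and in pig alone at 2 (background 3.15%). H3K27ac was called in both at 10 (25.0%, all orthologs 42.5%), in mouse alone at 4 (background 9.57%) and in pig alone at 4 (background 13.1%). H3K4me1 was called in both at 21 (52.5%, all orthologs 54.9%), in mouse alone at 3 (background 13.9%) and in pig alone at 12 (30.0%, background 17.4%). The 12 include 7 with a mouse H3K4me1 peak within 5 kb of a TSS, and the pig H3K4me1 list holds the more peaks. The H3K27ac counts for 1 species alone, at 10.0% each, were near the share of all orthologs.

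Near the edge of the 1 kb window, pig COL3A1 (0.971 kb) and COL11A1 (0.962 kb) were the members counted as holding H3K4me1 from farthest off. Mouse Col5a1 (1.08 kb), Col27a1 (1.19 kb) and Col4a1 (1.21 kb) fell just outside it. Among members without H3K27ac at the TSS, the nearest peak to a TSS was at 1.51 kb, at mouse Col7a1, and among those without H3K4me3 at 4.27 kb, at pig COL24A1.

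Because a TSS can be annotated at different places in 2 species, each mouse promoter (250 bases before to 50 after the TSS) was searched with BLASTN in the pig gene with 250 kb on each side. Of the 42 mouse members, 34 had a promoter in the RefSeq table; Col1a1, Col4a3, Col5a2, Col9a3, Col12a1, Col14a1, Col22a1 and Col26a1 had none. Of the 32 searched, 23 matched, 21 of them within 1 kb of the annotated pig TSS. In 15 of these 21 the pig gene held H3K4me3 at its TSS, and a peak lay on the matched stretch in all 15.

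Of the 7 genes with H3K4me3 in mouse alone, 6 could be searched and all matched. At COL3A1, COL7A1, COL11A2 and COL17A1 the match lay within 1 kb of the pig TSS, and no H3K4me3 peak lay on it. The COL3A1 match, of which the bases before the mouse TSS are printed above (118 of 151 mouse bases shared), had 81.5% identity over 205 aligned positions and was centred 0.144 kb from the pig TSS, with 0 unresolved bases in the 10 kb around it. At COL4A6 the match lay 207 kb from the annotated pig TSS, and H3K4me3 and H3K4me1 peaks overlapped it. That position is upstream of COL4A5, as in mouse; the pig gene is annotated over 116 kb and the mouse gene over 309 kb. At COL24A1 the match had 88.6% identity over 88 positions, 6.78 kb from the annotated pig TSS, and H3K4me3 and H3K27ac peaks overlapped it. Neither peak lies within 1 kb of an annotated pig TSS. For these 2 genes the H3K4me3 call in pig thus differed between the annotated TSS and the sequence that matches the mouse promoter, and at the latter it was the same as in mouse. For COL24A1 this was so for H3K27ac too. The counts for mouse alone use the annotated TSS and include both genes for H3K4me3 and COL24A1 for H3K27ac.

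Promoter composition was compared with that of all coding promoters of the species, by CpG observed over expected in the 300 bases around the TSS. Members had a median of 0.47 in mouse (34 promoters, all coding 0.58) and 0.54 in pig (41 promoters, all coding 0.63). Members with H3K4me3 had medians of 0.54 and 0.66, and those without it 0.37 and 0.31. The ranges overlapped, from 0.00 to 0.90 with the mark and 0.00 to 0.66 without it in mouse, and from 0.21 to 1.07 and 0.00 to 0.54 in pig. Coding promoters at large were not split by H3K4me3, so whether this gap is particular to collagen genes was not tested. The pig group without the mark includes COL4A6 (0.16) and COL24A1 (0.40). Their values come from the annotated TSS, away from the sequence that matches the mouse promoter. Mouse Col3a1 is the lowest of the members with H3K4me3, at 0.00 and 37.7% GC, and pig COL3A1 had 0.17 and 39.7% GC. Col4a1 had the highest value of the mouse members, at 0.90, and its head-to-head partner Col4a2 had 0.82.

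**Figure D3:**
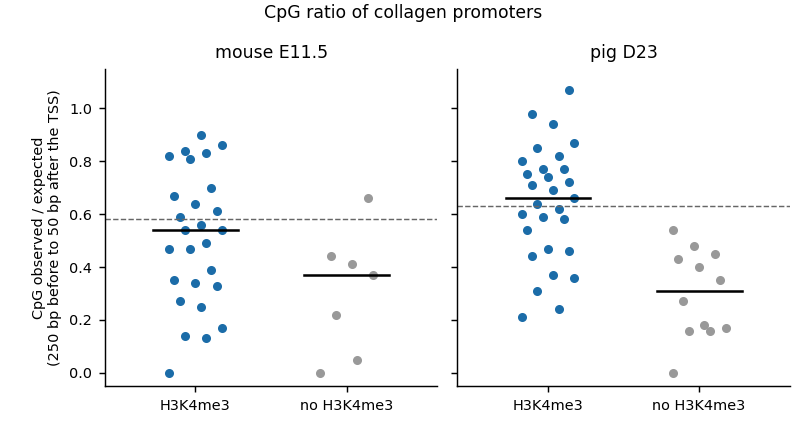
CpG observed over expected (vertical axis, a ratio) in the 300 bases around the TSS for each collagen promoter, by presence of H3K4me3 within 1 kb; points are genes, black bars medians and the dashed line the median of all coding promoters. Medians are 0.54 with and 0.37 without the mark in mouse, and 0.66 and 0.31 in pig, and the points of both groups overlap.

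A CCAAT box, searched as CCAAT on either strand in the 250 bases before the TSS, was found in 12 of 34 mouse members (35.3%, all coding promoters 36.5%) and 17 of 41 pig members (41.5%, all coding 31.9%). Among members with H3K4me3 it was in 6 of 10 mouse promoters with H3K27ac and 4 of 17 without, and in 7 of 14 and 4 of 15 pig promoters. All coding promoters were not split by H3K27ac, so whether this difference is particular to collagen genes was not tested. A TATA-like motif, searched as TATAAA on either strand or TATATA, which reads the same on both strands, was found in 6 of 34 mouse members (17.6%, all coding 15.9%) and 10 of 41 pig members (24.4%, all coding 12.9%). In the Col1a2 sequence above, CCAAT starts 109 bases before the TSS. In Col10a1, TATAAA starts 32 bases before it and TATATA 197 bases before it. A match of letters is a description, not a site shown to be bound.

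Distal H3K27ac peaks were those on no H3K4me3 peak and over 1 kb from any annotated TSS, given to the nearest coding TSS within 500 kb. At least 1 was assigned to 22 of 42 members in mouse (52.4%, background 25.0%) and 20 of 41 in pig (48.8%, background 28.8%). Collagen genes are long, with a median of 118 kb in mouse and 140 kb in pig, where all coding genes have 17.2 and 19.2 kb. Among genes of 36.5 kb or longer in mouse, 17 of 31 members (54.8%) and 46.3% of coding genes had a distal peak. Among genes of 38.8 kb or longer in pig, 48.4% and 48.6% did. Among long genes, the pig members were near the share of coding genes.

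Members had 42 distal peaks in mouse and 92 in pig. The mouse peaks had a median width of 3072 bp and the pig peaks 1044 bp, so numbers are not on a like scale. Of these peaks 57.1% in mouse and 88.0% in pig overlapped H3K4me1 (all distal peaks 48.0% and 72.4%). Inside the gene they were assigned to lay 42.9% and 62.0% (all distal peaks 41.7% and 41.5%). COL23A1 and COL26A1 together held 28 of the 57 pig peaks inside genes. COL23A1, a transmembrane collagen, had 14 distal peaks in pig, all within the gene between 12.6 and 187 kb from a TSS, and 4 in mouse. COL26A1, a chain outside the main classes, had 14, also all within the gene, and 5 in mouse, the most there. In pig COL21A1 had 10, COL6A3 9 and COL6A2 7, on an unplaced scaffold. In mouse Col12a1 and Col23a1 had 4 each, and Col5a2 and Col25a1 3 each. Several of these numbers depend on the reach and on peak width. With a reach of 100 kb, pig COL23A1 had 7 and COL6A3 5, and mouse Col12a1 had 0 and Col25a1 1. In the wider 50% of peaks, pig COL26A1 had 7, COL23A1 5, COL21A1 4 and COL6A3 3, and mouse Col26a1 had 2. Of the 4 mouse peaks at Col23a1, 1 overlapped H3K4me1, and of those at Col12a1, 0 did.

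**Figure D4:**
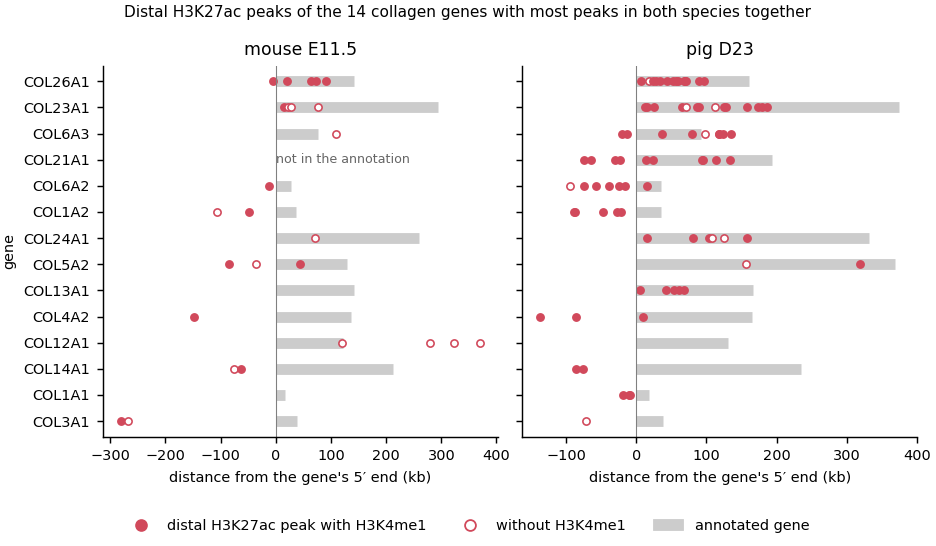
Distal H3K27ac peaks (circles, filled where H3K4me1 overlaps) by distance in kb from the gene's 5′ end, negative values upstream, for the collagen genes with the most such peaks over both species; grey bars are the annotated genes. The 14 pig peaks of COL26A1 and of COL23A1 lie on the grey bars, and the 5 pig peaks of COL1A2 lie upstream of the gene.

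The share with a distal peak was higher among members with H3K27ac at the TSS, as it was among all coding genes. In mouse, 11 of 14 members with H3K27ac at the TSS had a distal peak (78.6%) and 11 of 28 without it (39.3%), beside 33.7% and 18.8% of coding genes. In pig, 8 of 14 (57.1%) and 12 of 27 (44.4%) did, beside 36.6% and 22.0%. These shares were not matched for gene length, so members and coding genes are not on a like scale here. The type I genes, marked at the TSS in both species, differed in number. Mouse Col1a1 had no distal peak, and pig COL1A1 had 3, at 8.35, 10.2 and 19.6 kb upstream. The wide mouse H3K27ac peak at the Col1a1 TSS itself reached 9.85 kb upstream, past the distance of the first of these, while the pig TSS peak reached 0.0850 kb upstream. Col1a2 had 2 in mouse, at 48.7 and 107 kb upstream, and COL1A2 5 in pig, from 21.3 to 88.4 kb upstream. COL11A1, marked at the TSS in both species, had none in either.

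Of the 41 mouse distal peaks assigned to members with a pig ortholog, 31 had a sequence match in the pig locus (75.6%, background 52.7% of 8701 peaks). A pig H3K27ac peak overlapped the match in 6 cases (14.6%, background 4.98%) and a pig H3K4me1 peak in 15 (36.6%, background 21.7%). In 14 of the 31 neither did, beside 2635 of the 4588 matched peaks of all orthologs. The 2 shares just given are of all peaks, matched or not. Among matched peaks, a pig H3K27ac peak overlapped 6 of 31 for members and 433 of 4588 for all orthologs. The 6 belong to 5 genes, with 2 at Col26a1 and 1 each at Col1a2, Col6a3, Col8a2 and Col12a1, and the Col12a1 match includes an annotated exon. The pig peak on the Col12a1 match was not counted as a distal peak of pig COL12A1, which had 0. The Col1a2 peak is centred 48.7 kb upstream of the mouse TSS, and the pig H3K27ac peak on its match is centred 48.0 kb upstream of the pig TSS. That match runs over 857 aligned positions with 74.8% identity, of which 275 bp lie under the pig peak. For Col8a2, a chain of the corneal basement membrane, the match runs over 893 positions with 73.1% identity, and for Col6a3 over 367 with 66.8%. At Col6a3 only 40 bp of the match lie under the pig peak.

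The best conserved 200 bases of each of these 3 matches are shown on the plus strand of GRCm38, with capitals where pig has the same base. They come from chr6:4457335-4457534 (Col1a2, 174 of 200 bases shared), chr4:126278676-126278875 (Col8a2, 175 shared) and chr1:90733979-90734178 (Col6a3, 147 shared). These stretches are parts of the whole match and need not lie under the pig H3K27ac peak. At Col6a3 most of the printed bases lie outside it, since 40 bp of the match are under the peak.
Col1a2, distal: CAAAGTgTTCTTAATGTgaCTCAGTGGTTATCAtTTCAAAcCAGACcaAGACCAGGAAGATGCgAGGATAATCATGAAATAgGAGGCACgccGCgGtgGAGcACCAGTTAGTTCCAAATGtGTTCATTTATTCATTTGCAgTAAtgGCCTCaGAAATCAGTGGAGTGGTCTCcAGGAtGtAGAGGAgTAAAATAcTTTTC
Col8a2, distal: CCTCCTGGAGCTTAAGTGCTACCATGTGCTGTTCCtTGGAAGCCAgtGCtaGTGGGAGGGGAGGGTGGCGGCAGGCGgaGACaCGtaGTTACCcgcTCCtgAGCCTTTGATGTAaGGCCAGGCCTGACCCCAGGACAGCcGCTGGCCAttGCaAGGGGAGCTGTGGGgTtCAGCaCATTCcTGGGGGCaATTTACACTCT
Col6a3, distal: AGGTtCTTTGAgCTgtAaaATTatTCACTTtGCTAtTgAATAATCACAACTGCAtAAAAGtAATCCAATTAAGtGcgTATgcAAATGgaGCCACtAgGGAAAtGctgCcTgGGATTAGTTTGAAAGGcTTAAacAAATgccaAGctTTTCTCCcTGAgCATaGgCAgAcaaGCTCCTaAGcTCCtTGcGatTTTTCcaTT

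The enzymes and chaperones that make collagen were counted in the same way. Of 19 genes of modification and folding, H3K4me3 was called at 19 in mouse and 18 in pig, H3K27ac at 16 (84.2%, all coding genes 41.6%) and 14 (73.7%, all coding genes 46.7%), and H3K4me1 at 16 and 14. Serpinh1, the collagen chaperone HSP47, Plod2, a lysyl hydroxylase, P4ha1, a prolyl hydroxylase subunit, and Ppib, a prolyl isomerase, held both marks in both species. Of 13 genes of propeptide removal and crosslinking, H3K27ac was called at 6 in mouse (46.2%) and 7 in pig (53.8%), near the shares of all coding genes. Bmp1, the procollagen C-proteinase, and Lox, which crosslinks fibrils, were among them in both. Of the receptors it was called at 2 of 8 in mouse, the discoidin receptors Ddr1 and Ddr2, and at 5 of 7 in pig, where the integrin subunits ITGA1, ITGA2 and ITGA11 joined them. Over these 3 lists 24 of the 40 mouse genes and 26 of the 39 pig genes held H3K27ac, beside 41.6% and 46.7% of all coding genes. H3K4me3 was at 36 in each species (90.0% and 92.3%, all coding genes 65.0% and 64.9%), and H3K4me1 at 33 in mouse (82.5%, all coding genes 54.7%) and 30 in pig (76.9%, all coding genes 61.3%).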

How the data were processed

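Per the labels' protocols and the design text, 1% formaldehyde was the fixative and 1 µg of antibody was added, reads of 50 bp after cropping were aligned to GRCm38 or Sscrofa11.1, and broad peaks were kept at an IDR (irreproducible discovery rate) under 0.01. The tools named in the submitters' processing notes are Bowtie2 2.3.5, Trimmomatic 0.39, SAMtools 1.9, deepTools 3.5 and FastQC 0.11.9. For the peak caller, no name was found in those sources. The authors deposited, per species and mark, other values than counts or scores: the chromosome, start and end of each consensus peak. The depth per sample is unknown, so no interval or test was computed.

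Peaks were placed on the RefSeq annotation of the same builds with Python 3.11.15. The 14946 orthologs are coding genes whose upper-case symbol occurs once in both annotations. Scaffold peaks in the mouse lists (17, 15 and 4) were not used. Pig sequence was read with pyfaidx 0.9.0.4. Promoters and distal peaks were matched with BLASTN 2.17.0 (word size 11, low-complexity filter, repeats not masked, E of 1e-05 or lower for promoters and 1e-10 for distal peaks, best match kept), the latter in the pig gene with 500 kb on each side. The overlap functions were tested on simulated data. Windows of 0.5 and 2.5 kb, the 5′ end alone, the wider 50% of peaks, 50% cover of the window and, for distal peaks, a reach of 100 kb and 2 other definitions were tried.

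Genes named in the text are every fibrillar member and, in the other classes, members with all 3 marks in both species or none in either, with H3K27ac or H3K4me3 in 1 species only, among the 5 with most distal peaks in each species, or in head-to-head pairs; the others named were chosen after their values were seen. Classes follow textbook knowledge. The members and the lists were chosen with earlier results of these data known, and the sequence matches were added after the peaks were read.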

Additional observations from a re-analysis of the deposited data

How the results depend on the processing

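Of 74 recomputed counts, 61 lay within 1.5 times the value reported and 13 did not, 10 of them in the wider 50% of peaks. There, H3K4me3 was called at 18 of 42 members in mouse, near the share of coding genes (40.4%). H3K27ac was called at 9 of 42 in mouse (24.9% of coding genes). H3K4me1 was called at 16 of 42 in mouse (26.8% of coding genes) and 21 of 41 in pig (39.0%). In that setting H3K4me3 was called in pig alone at 9 members, H3K27ac in mouse alone at 2 and in pig alone at 7, and H3K4me1 in mouse alone at 10, and members had 23 distal H3K27ac peaks in mouse and 42 in pig. Fewer peaks enter by construction. With peaks covering 50% of the window, pig H3K4me1 was called at 22 of 41 members (27.2% of coding genes). With a window of 0.5 kb, H3K4me1 was called in mouse alone at 6. With H3K4me1 required, mouse members had 24 distal peaks. The cause of these 3 changes was not tested. At 50% cover, mouse H3K4me1 was called at 20 of 42 members (22.4% of coding genes). With the 0.5 kb window it was called at 23 in mouse (36.4% of coding genes) and 27 in pig (43.8%). The same 7 genes held H3K4me3 in mouse alone with windows of 0.5 and 2.5 kb and at the 5′ end alone; in the wider peaks 6 genes did, of which 4 are among the 7. No paired analysis was possible because the values are consensus lists and no result comes from a test. The lists hold no score or depth, so the absence of a peak does not separate no mark from a mark below the caller's threshold, and differences between species cannot be told apart from those of peak width or, for H3K4me3 and H3K27ac, of the read length at sequencing.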
